A study of Mus musculus with 4 samples.

Results

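The genes described here are the mouse zinc finger genes with symbols from *Zfp500* to *Zfp999*, a numbered series in which most members code for proteins with rows of C2H2 zinc fingers, the small zinc-holding folds that read DNA sequence. A probe set was taken as a member when its only symbol on the array platform was Zfp followed by a number of 500 or more. This rule found 170 genes, measured by 182 probe sets, among 19938 genes with 1 symbol and 35556 probe sets on the array. The rule reads symbols and no measured value, although this range of symbols was picked with earlier results of these data known.

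RNA from whole cochleas at embryonic day (E) 15 was hybridized to 4 Affymetrix Mouse Gene ST arrays, with 2 arrays of *Meis2* mutants (replicates 1 and 2) and 2 of wild-type embryos (replicates 2 and 3). The mutants carried floxed *Meis2* alleles and a Cre driven by *Pax2* regulatory sequences (*Meis2* flox/flox; *Pax2* Cre/+), a driver that is active from the otic placode and vesicle onwards, so that cells outside its lineage keep the gene. Wild-type cochleas are labelled only as such, with no Cre or floxed allele named. The question was which genes depend on *Meis2*, a homeodomain transcription factor, in the cochlea. Neither the labels nor the methods for the arrays say whether arrays of a genotype came from separate animals, and the p-values measure only the spread between these arrays, which may be technical. Whole tissue was used, and fewer cells of a type and less RNA per cell cannot be told apart.

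Many C2H2 zinc finger proteins of mammals carry a KRAB domain, which binds Trim28 and through it recruits the methyltransferase Setdb1, HP1 proteins and histone deacetylases to silence the bound DNA, often a transposable element. Their genes have multiplied by tandem duplication and stand in clusters on several mouse chromosomes, in which neighbours resemble each other in sequence. Other members of the numbered series have no KRAB domain and act as corepressors, RNA-binding proteins or ribosome-associated factors. Values below are log2 signals, and differences are *Meis2* mutant minus wild type in the same unit, where 1 is a 2-fold change. The test was limma's, a linear fit in which probe sets inform each other's spread, its p-values were adjusted by Benjamini-Hochberg over the whole array, and an adjusted p of 0.05 was the threshold. A gene with several probe sets is represented by the brightest over all 4 arrays.

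Median signals of the arrays were 6.73 and 6.72 in mutants and 6.63 and 6.65 in wild type. Correlated over all probe sets, as a description, the mutant arrays had Pearson's r of 0.996, the wild-type arrays 0.993, and arrays of different genotype 0.966 to 0.971. *Meis2* itself had 9.61 and 9.80 in mutants and 9.64 and 9.38 in wild type (difference 0.19 ± 0.13, SE, limma adjusted p = 0.284). Its probe set may lie outside the deleted part of the gene and does not check the labels. Cochlear markers were detected on every array, with mean levels of 10.2 and 10.3 in mutants and 9.98 and 9.93 in wild type over 4 non-sensory duct genes. *Xist*, which is transcribed from the inactive X chromosome of females, had 11.83 and 11.85 in mutants, against 5.54 in wild-type replicate 2 and 11.51 in wild-type replicate 3, and 3 of 3 measured Y-linked genes were lower in mutants. Among them *Eif2s3y* had 4.68 and 4.88 in mutants, against 8.76 in wild-type replicate 2 and 7.77 in wild-type replicate 3, so that wild-type replicate 3 held signal of both kinds. A single member, *Zfp711*, lies on the X chromosome.

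As a group the *Zfp500* to *Zfp999* genes had less signal in *Meis2* mutants. Of the 170 genes, 78 fell and 28 rose past the threshold, and 64 did not pass it. That is 45.9% lower and 16.5% higher, whereas among all 19938 genes 16.2% were lower and 24.2% were higher. With arrays scaled to equal medians, 86 members were lower and 19 higher, against 18.9% and 15.7% of all genes. The median difference was -0.30 for the members, with the middle of the distribution between -0.82 and 0.16, against 0.13 for all genes. The median signal of the members was 7.36 and 7.33 on the mutant arrays and 7.87 and 7.99 on the wild-type arrays. Over the 78 genes that fell, the medians were 7.04 and 6.88 in mutants and 8.06 and 8.18 in wild type, and over the 28 that rose they were 8.81 and 8.80 in mutants and 8.24 and 8.12 in wild type. Decreases of 2-fold or more that also passed the test were found for 30 members and such an increase for 1, with backgrounds of 3.83% and 1.13% of all genes. The groups did not overlap for 153 members, of which 104 were lower and 49 higher in mutants, and 80.4% of all genes also had groups that did not overlap. Without mutant replicate 1, 6 members were higher and 52 lower, against 7.08% and 8.84% of all genes. Without mutant replicate 2, 4 were higher and 45 lower, against 5.19% and 6.82% of all genes. Zinc finger genes with numbers under 500, the set most like the members, had 53 lower and 23 higher of 147, with a median difference of -0.12.

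Markers of other cells moved with genotype and stand beside these counts. Over 5 skeletal muscle genes the mean level was 7.08 and 7.599 in mutants and 6.36 and 6.60 in wild type, with 4 higher. Over 5 spiral ganglion genes it was 7.98 and 7.99 in mutants and 8.70 and 8.88 in wild type, with 3 lower, and over 5 prosensory genes it was 8.29 and 8.56 in mutants and 8.97 on both wild-type arrays, with 2 lower. Of 4 macrophage genes *Cd68* rose and 3 did not pass, and 3 of 3 endothelial genes did not pass. Of 4 periotic mesenchyme genes *Coch* and *Otor* fell, by 1.09 and 1.22, and 2 did not pass. *Fabp7*, a glial gene, fell by 1.45, while the glial gene *Sox10* rose by 0.46, and the erythroid gene *Alas2* fell by 0.88. Of 6 hair cell genes *Myo7a* and *Otof* rose, by 1.17 and 0.43, *Myo6* fell by 0.64 and 3 did not pass. Of 4 cartilage genes 2 rose, of 4 non-sensory duct genes *Pax2* rose by 0.97, and of 3 melanocyte genes 1 rose. The part of these cells in the decreases of the zinc finger genes was not tested. Without wild-type replicate 2, the array with low *Xist*, 72 of the 170 members were lower and 21 higher, against 16.2% and 15.8% of all genes. This does not remove the difference in Y-linked signal, since wild-type replicate 3 also had it, and the part of sex was not tested.

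Split by symbol number, the share of decreases was highest among the highest numbers. From *Zfp500* to *Zfp599*, 8 of 31 genes fell and 8 rose, with a median difference of -0.03. From *Zfp600* to *Zfp699*, 15 of 43 fell and 8 rose, and from *Zfp700* to *Zfp799*, 16 of 37 fell and 8 rose. From *Zfp800* to *Zfp899*, 16 of 25 fell and 4 rose, with a median of -0.44. In the highest numbers, *Zfp900* to *Zfp999*, 23 of 34 genes fell and 11 did not pass, the median difference was -1.02, and 17 genes fell by 2-fold or more. All but *Zfp951*, at 0.18, of these 34 had a difference below 0. Median signals over the 4 arrays went down along the same order, at 8.28, 8.04, 7.65, 7.30 and 6.63.

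**Figure D1:**
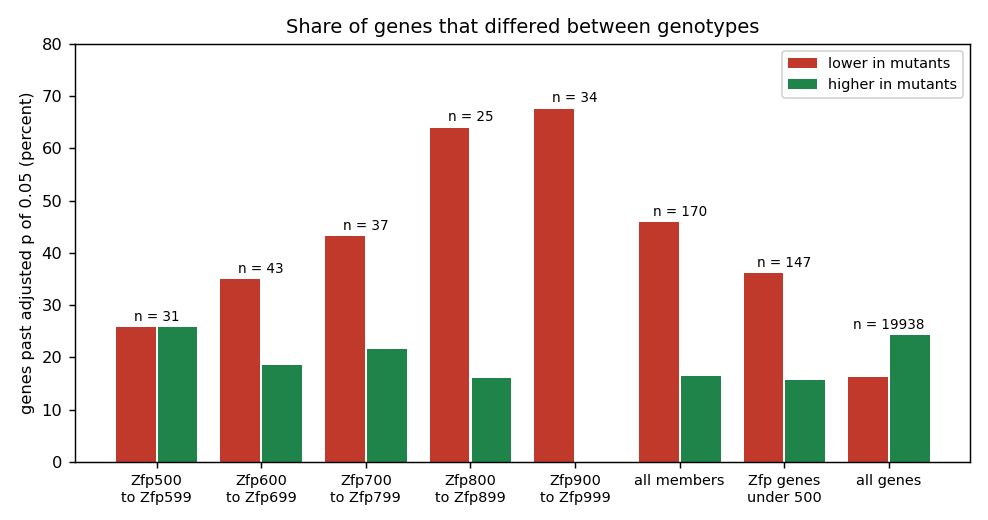
Share of genes (percent) that passed the adjusted p of 0.05 as lower (red) or higher (green) in *Meis2* mutants, for members by symbol number, all members, Zfp genes under 500 and all genes. The share of lower genes is 25.8% in *Zfp500* to *Zfp599* and 67.6% in *Zfp900* to *Zfp999*, against 16.2% of all genes.

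Signal level was set beside the differences. Ranked by mean signal, the 57 dimmest members (4.04 to 6.98) had 25 lower and 6 higher, or 43.9% lower, whereas 4.07% of all genes in this range of signal were lower. Median levels in this range were 6.06 for the members and 5.49 for all genes, so these sets are not matched in level. The 56 members between 7.03 and 8.12 had 32 lower and 6 higher, or 57.1% lower, against 24.5% of all genes in that range. Among the 57 brightest (8.15 to 11.83), 21 were lower and 16 higher, or 36.8% lower, against 26.8%. Across the 170 members, mean signal and difference had Spearman's rho of 0.18 and Pearson's r of 0.14, given as a description, since all points share the same 4 arrays.

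**Figure D2:**
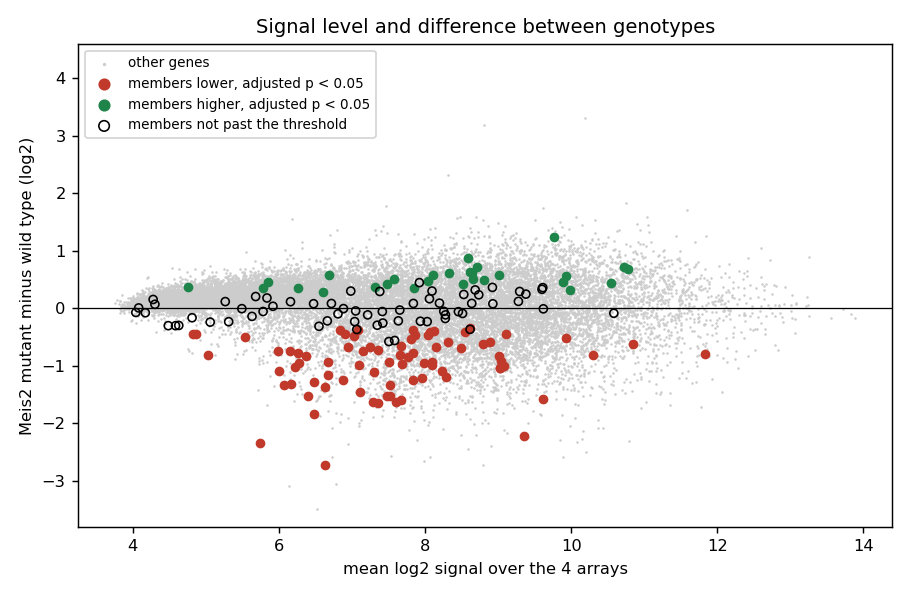
Difference between genotypes (*Meis2* mutant minus wild type, log2) against the mean log2 signal over the 4 arrays, with members lower (red), higher (green) or not past the threshold (open) and all other genes in grey. Members that fell are found from a mean of 4.82 to 11.83, and among all members the difference runs from -2.73 to 1.25.

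The largest decreases were in little-studied genes of the highest numbers. *Zfp991*, from a cluster on chromosome 4, had 5.54 and 4.99 in mutants and 7.68 and 8.31 in wild type, a difference of -2.73 ± 0.28 (SE, n = 2 each, limma adjusted p = 0.00438). *Zfp931* had 4.50 and 4.66 in mutants and 6.71 and 7.12 in wild type, a difference of -2.33 ± 0.16 (adjusted p = 0.00274). *Zfp971* had 8.32 and 8.17 in mutants and 10.39 and 10.53 in wild type, which was -2.22 ± 0.10 (adjusted p = 0.00244). *Zfp931* and *Zfp971* are both on chromosome 2. In each of these 3 genes the mutant arrays lay well below both wild-type arrays, and the gap was several times the distance between arrays of a genotype.

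The next in size was *Zfp975* on chromosome 7, with 5.76 and 5.35 in mutants and 7.46 and 7.34 in wild type (-1.84 ± 0.16). *Zfp961* on chromosome 8 had 6.46 and 6.60 in mutants and 8.20 and 8.16 in wild type (-1.65 ± 0.09). *Zfp788* had 6.80 and 6.76 in mutants and 8.33 and 8.50 in wild type (-1.63 ± 0.09), and its 2 probe sets held identical values on all arrays and count as 1 measurement. Differences of -1.62, -1.60, -1.58 and -1.53 were found for *Zfp942*, *Zfp935*, *Zfp825* and *Zfp654*. *Zfp825* had 8.75 and 8.91 in mutants and 10.34 and 10.48 in wild type. All 10 genes were past the threshold without each array in turn, as were 43 of the 78 members that fell.

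Increases were smaller. *Zfp580* had 10.41 and 10.37 in mutants and 9.02 and 9.27 in wild type, a difference of 1.25 ± 0.11 (SE, n = 2 each, limma adjusted p = 0.00363) and the only increase of at least 2-fold. *Zfp628*, which is required in mouse for the development of male germ cells, had 8.98 and 9.07 in mutants and 8.22 and 8.09 in wild type (0.87 ± 0.09, adjusted p = 0.0047). Both genes lie in the same stretch of chromosome 7. *Zfp827* had 11.09 on both mutant arrays and 10.46 and 10.27 in wild type (0.72 ± 0.10, adjusted p = 0.00749). *Zfp574*, *Zfp652*, *Zfp579*, *Zfp703*, *Zfp598*, *Zfp865* and *Zfp575* rose by 0.71, 0.69, 0.64, 0.62, 0.61, 0.58 and 0.58. Of these 10, *Zfp580*, *Zfp628* and *Zfp703* were past the threshold without each array in turn, and these were all that held of the 28 members that rose. *Zfp574* and *Zfp827* missed it without mutant replicate 2 (adjusted p = 0.0831 and 0.0503), *Zfp652*, *Zfp579*, *Zfp598* and *Zfp865* missed it without replicate 1 and without replicate 2 of the mutants, and *Zfp575* also without wild-type replicate 2.

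**Figure D3:**
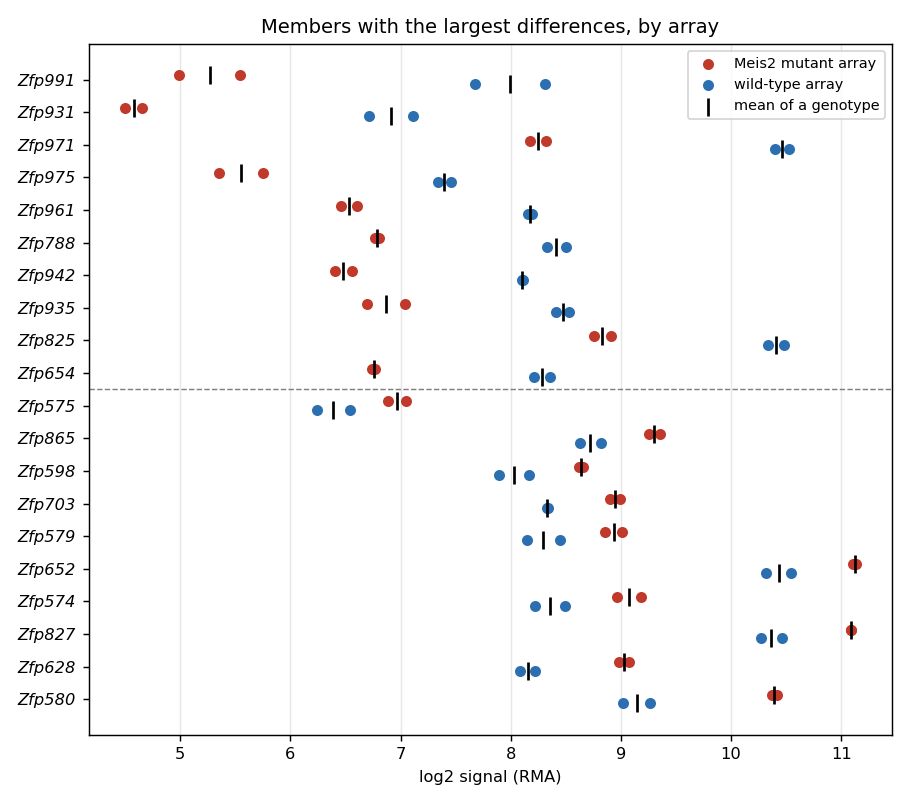
Log2 signal on each array for the 10 members with the largest decrease and the 10 with the largest increase past the threshold, with *Meis2* mutant arrays in red above wild-type arrays in blue and the mean of each genotype as a bar. Rows were chosen among genes with no overlap between genotypes, and the distance between means runs from 1.53 to 2.73 in the upper rows and from 0.58 to 1.25 in the lower.

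The brightest members moved in both directions. *Zfp706*, a short zinc finger protein that mouse embryonic stem cells need to leave self-renewal, had the highest mean, with 11.55 and 11.31 in mutants and 12.18 and 12.28 in wild type (-0.80 ± 0.11, limma adjusted p = 0.00816). *Zfp664* had 10.52 and 10.54 in mutants and 11.14 and 11.15 in wild type (-0.62 ± 0.08, adjusted p = 0.00626). A second probe set of each of these genes did not pass the threshold, with differences of -0.04 and 0.01. Its mean was 10.40 for *Zfp706*, still a bright signal, and 7.64 for *Zfp664*, so each decrease rests on 1 of 2 probe sets. *Zfp652*, a DNA-binding repressor, had 11.11 and 11.13 in mutants and 10.55 and 10.32 in wild type (0.69 ± 0.11, adjusted p = 0.01). The dimmest members by probe sets with 1 symbol, *Zfp980*, *Zfp600* and *Zfp640*, had means of 4.04 to 4.17, close to the lowest signals on the arrays. Their differences of -0.07, 0.01 and -0.08 did not pass. Of the 9 members with several probe sets, *Zfp558* and *Zfp825* had 2 that passed with values of their own, and in both genes the 2 were lower in mutants. *Zfp738* of chromosome 13 counts as not passing by its brightest probe set, at -0.29. Its other probe sets had -0.69, which passed as lower (limma adjusted p = 0.00829), and -0.74, which did not (limma adjusted p = 0.0541).

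Members whose function is known were then set out by role. These 15 genes were chosen after their values had been seen, for having a described function, and 5 fell, 6 rose and 4 did not pass. Among all genes 16.2% were lower and 24.2% higher, and among all members 45.9% and 16.5%. *Zfp809*, the KRAB protein that silences Moloney-type retroviruses in mouse embryonic stem cells, had 7.83 and 7.55 in mutants and 8.95 and 8.83 in wild type (-1.20 ± 0.12, limma adjusted p = 0.00435). *Zfp568*, a KRAB protein that represses the placental promoter of *Igf2*, had 8.15 and 8.23 in mutants and 8.30 and 8.43 in wild type, a difference of -0.18 with a 95% interval from -0.41 to 0.06. The mutant arrays of *Zfp809* were thus far below wild type, and the interval for *Zfp568* included 0. *Zfp644*, whose human counterpart joins the histone methyltransferase G9a, fell by 0.51.

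Among members with other chromatin partners, *Zfp687* and *Zfp592*, which in human form a complex with ZMYND8, rose by 0.31 and 0.46. *Zfp827*, described above, recruits the NuRD remodelling complex in human cells. *Zfp746*, known as PARIS, a repressor of the gene for PGC-1 alpha, had 10.26 and 10.16 in mutants and 9.55 and 9.76 in wild type (0.56 ± 0.10, limma adjusted p = 0.0166). The call of *Zfp687* was lost without each of the 4 arrays and under median scaling (limma adjusted p = 0.11), that of *Zfp592* without each array but wild-type replicate 2, and that of *Zfp746* without mutant replicate 1 and without mutant replicate 2. *Zfp703*, a corepressor of the Nlz family, had 8.996 and 8.90 in mutants and 8.32 and 8.34 in wild type, while its relative *Zfp503* had 8.16 and 8.12 in mutants and 7.95 and 7.997 in wild type (0.17, 95% interval -0.04 to 0.37, adjusted p = 0.154). The difference between these relatives was not tested.

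*Zfp521*, which acts in progenitor cells, and *Zfp536*, which acts in neuronal differentiation, did not pass. *Zfp521* had 10.53 and 10.55 in mutants and 10.57 and 10.68 in wild type, and *Zfp536* had 7.59 and 7.68 in mutants and 7.68 and 7.66 in wild type. Their 95% intervals were -0.30 to 0.13 and -0.24 to 0.18. *Zfp598*, which marks collided ribosomes, had 8.66 and 8.62 in mutants and 8.16 and 7.89 in wild type, and *Zfp622*, a factor of large ribosomal subunit assembly, fell by 0.38. *Zfp638*, an RNA-binding member, had 8.47 and 8.52 in mutants and 9.77 and 9.31 in wild type (-1.05 ± 0.16, adjusted p = 0.0107). *Zfp711*, whose human counterpart is mutated in X-linked intellectual disability, had 5.77 and 5.82 in mutants and 6.64 and 6.84 in wild type (-0.94 ± 0.10, adjusted p = 0.00481). Of the 11 calls among genes set out by role, those of *Zfp809*, *Zfp703* and *Zfp711* were past the threshold without each array, and the other 8 were lost without mutant replicate 2.

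Position in the genome was taken from the RefSeq annotation, which holds 169 of the 170 genes. Decreases were unevenly spread over the chromosomes. Chromosome 17 carried 22 members, of which 19 fell and 1 rose, with a median difference of -0.82, while the other 914 genes of that chromosome had 12.4% lower and 28.7% higher with a median of 0.18. On chromosome 13, 7 of 8 members fell, on chromosome 8, 9 of 14, and on chromosome 10, 3 of 3, where 22.4%, 13.6% and 17.4% of the other genes were lower. Chromosome 7 held the most members, 49, of which 13 fell and 14 rose, with a median difference of -0.05. Its other 1685 genes had 8.78% lower and 31.2% higher and a median of 0.21. The members of chromosome 4 numbered 10, with 3 lower and 1 higher, where 16.8% of the other genes were lower and 27.7% higher. Those of chromosome 11 numbered 9, with 2 lower and 2 higher, where 14.0% of the other genes were lower and 29.8% higher.

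**Figure D4:**
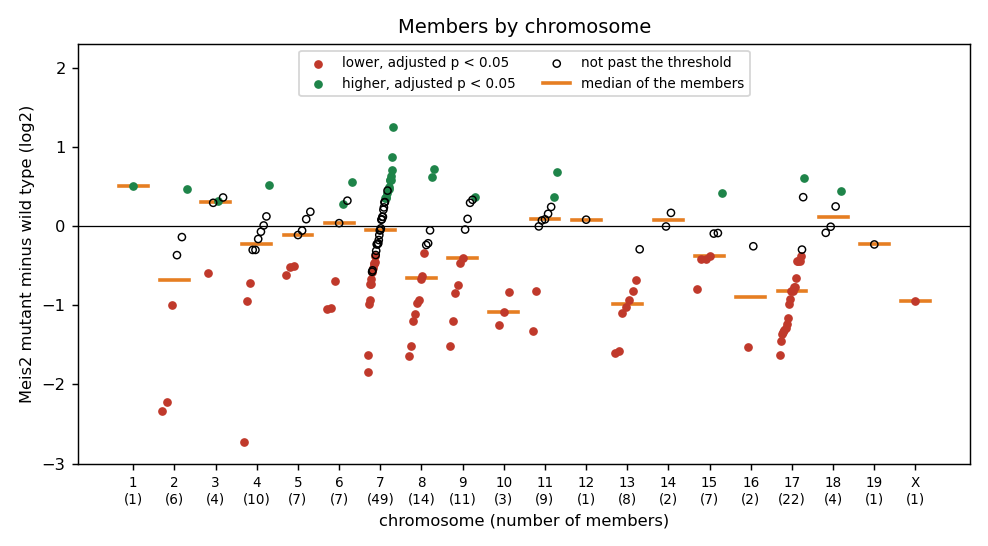
Difference (*Meis2* mutant minus wild type, log2) of each member by chromosome, with the number of members in brackets and an orange bar at their median, and colours as for the plot of signal level. On chromosome 17, 19 of 22 points are red, and on chromosome 7 the 49 points run from -1.84 to 1.25.

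Neighbouring members were grouped into runs, in which at most 5 other protein-coding genes separate a member from the next. In runs of 3 or more stood 78 members, of which 42 fell and 9 rose (53.8% lower, median -0.45). Another 20 stood in pairs (8 lower, 4 higher) and 71 alone (28 lower, 15 higher, 39.4% lower, median -0.09). Among all genes, 16.2% were lower and 24.2% higher. Neighbours of a run share sequence and so may share probe signal, and they are not independent.

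The longest run, on chromosome 17, held 12 members in the order *Zfp677*, *Zfp948*, *Zfp983*, *Zfp760*, *Zfp820*, *Zfp942*, *Zfp943*, *Zfp947*, *Zfp944*, *Zfp758*, *Zfp946* and *Zfp945*. All but *Zfp947* fell, and the median difference was -1.26. *Zfp942* had 6.56 and 6.40 in mutants and 8.11 and 8.10 in wild type (-1.62 ± 0.09, limma adjusted p = 0.00259). Its neighbour *Zfp943* had 5.75 and 5.92 in mutants and 7.07 and 7.17 in wild type (-1.29 ± 0.10, adjusted p = 0.003). *Zfp945* had 7.24 and 7.18 in mutants and 8.45 and 8.44 in wild type (-1.24 ± 0.08, adjusted p = 0.00272). In these 3 genes both mutant arrays lay more than 1 below both wild-type arrays, and arrays of a genotype lay close together.

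*Zfp983*, *Zfp944*, *Zfp946* and *Zfp820* fell by 1.45, 1.37, 1.34 and 1.31. *Zfp760* and *Zfp948* fell by 0.98 and 0.92. *Zfp758* had 4.66 and 4.58 in mutants and 5.64 and 5.23 in wild type (-0.82 ± 0.15), and *Zfp677* fell by 0.44. *Zfp947* had 4.62 and 4.34 in mutants and 4.86 and 4.69 in wild type (-0.30, 95% interval -0.63 to 0.03, limma adjusted p = 0.126). The call was lost without mutant replicate 1 and without mutant replicate 2 for *Zfp758*, and without each of the 4 arrays for *Zfp677*, and the others that fell were past the threshold without each array. Between these genes lie 5 measured Zfp genes of lower number, of which *Zfp54*, *Zfp51*, *Zfp53* and *Zfp229* fell and *Zfp52*, at -0.38, did not pass. Of the vomeronasal receptor genes in the run, *Vmn2r112* and *Vmn2r111* were measured, at -0.19 and 0.08, and did not pass.

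Another run of chromosome 17 held *Zfp871*, *Zfp811*, *Zfp799*, *Zfp870*, *Zfp952*, *Zfp763* and *Zfp563*, and all 7 fell, with a median of -0.66. *Zfp871* had 9.78 and 10.003 in mutants and 10.69 and 10.73 in wild type (-0.82 ± 0.11, limma adjusted p = 0.00679), and *Zfp952* had 6.02 and 6.16 in mutants and 7.02 and 7.495 in wild type (-1.17 ± 0.17). The other differences lay between -0.77 and -0.38. Among these genes stand *Cyp4f14* and *Cyp4f13*, cytochrome P450 genes, which rose by 0.37 and 0.96, and *Zfp472*, at -0.07, which did not pass. Most calls of this run were lost when a mutant array was left out. *Zfp871* alone was past the threshold without each array, and 1 of the 7 passed without mutant replicate 1 and 2 without mutant replicate 2.

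Further runs in which at least 3 members fell were *Zfp708*, *Zfp759*, *Zfp595* and *Zfp953* on chromosome 13 (4 of 4, median -0.98), *Zfp781*, *Zfp873* and *Zfp938* on chromosome 10 (3 of 3, median -1.08), *Zfp709*, *Zfp882*, *Zfp617* and *Zfp961* on chromosome 8 (3 of 4, median -0.89), and *Zfp930*, *Zfp868*, *Zfp869* and *Zfp866* on the same chromosome (3 of 4, median -0.65). On chromosome 9, *Zfp653*, *Zfp872*, *Zfp809*, *Zfp599* and *Zfp810* had 3 lower. *Zfp872*, at a low mean of 4.76, rose by 0.37 (limma adjusted p = 0.0435). That increase did not pass under median scaling or repeated quantile normalization. The run of chromosome 4 held *Zfp980*, *Zfp600*, *Zfp991*, *Zfp982*, *Zfp985*, *Zfp979* and *Zfp933*. Of these *Zfp991* and *Zfp933* fell, by 2.73 and 0.95, whereas the other 5 had means of 4.04 to 4.81 and differences between -0.30 and 0.01 that did not pass. Brighter probe sets with several symbols, left out of these counts, name the same 5 among other genes and were lower in mutants. A probe set naming *Zfp980* and *Zfp985* among others had a mean of 8.27 and a difference of -2.13. Another, naming *Zfp600*, *Zfp979* and *Zfp980* among others, had 5.35 and -0.92 (limma adjusted p = 0.0109). Which gene gave such signal cannot be told. *Zfp982* and *Zfp979* were near the threshold (limma adjusted p = 0.0514 and 0.0768), and *Zfp933* missed it without mutant replicate 2 (adjusted p = 0.0712), which left 1 of the 7. Under median scaling, repeated quantile normalization, probe sets with 1 symbol or a threshold of 0.1, 4 of the 7 were lower.

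Increases were found in some runs of chromosome 7, where 31.2% of the other genes were higher and 8.78% lower. Other runs of this chromosome had decreases, with 2 of 4 members lower from *Zfp790* to *Zfp566* and 2 of 3 from *Zfp626* to *Zfp850*. *Zfp628*, *Zfp579*, *Zfp524*, *Zfp865*, *Zfp784* and *Zfp580* lie together, and 4 of the 6 rose and the others did not pass, with a median of 0.61. *Zfp865* had 9.25 and 9.35 in mutants and 8.81 and 8.63 in wild type, and *Zfp579* had 8.85 and 9.01 in mutants and 8.45 and 8.14 in wild type. *Zfp524* and *Zfp784* had 0.24 and 0.30 and did not pass (adjusted p = 0.0677 and 0.065). Of 5 other measured genes between them, *Ssc5d*, *Sbk2* and *Fiz1* rose and 2 did not pass. With a mutant replicate left out, whether 1 or 2, *Zfp628* and *Zfp580* were the 2 of the 6 that passed. A further run held *Zfp553*, *Zfp771*, *Zfp768*, *Zfp747*, *Zfp764*, *Zfp688* and *Zfp689*, with a median of -0.05. Of these *Zfp771* rose by 0.42 and *Zfp689* by 0.35 (28.6% of the run), and 5 did not pass, with differences from -0.36 to 0.09. Both calls were lost without mutant replicate 1 and without mutant replicate 2.

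**Figure D5:**
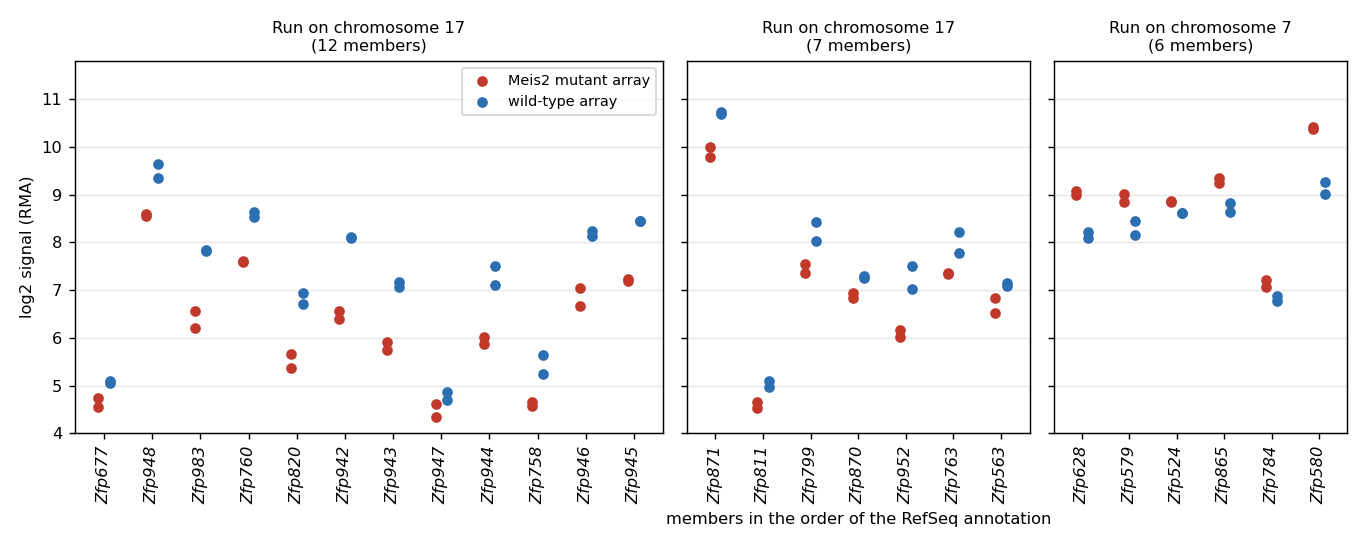
Log2 signal on each array (*Meis2* mutant red, left; wild type blue, right) for members of 3 runs in the order of the annotation, 2 on chromosome 17 and 1 on chromosome 7. In the runs of chromosome 17 the mutant arrays lie below wild type in every gene, with 11 of 12 and 7 of 7 past the threshold, and in the run of chromosome 7 they lie above.

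Promoter sequences from RefSeq (GRCm38.p6), 300 bases reaching from 250 before to 50 after an annotated start, were found for 142 members, with 174 promoters. TGACAG, the core to which Meis proteins bind, was searched on both strands, together with TGATNNAT, a site of Pbx together with Hox proteins. TGACAG was in 57 of 174 member promoters (32.8%) and in 19.2% of all 32851 promoters. Of the promoters of members that fell, 37 of 85 held it (43.5%), and of those of members that rose, 4 of 22 (18.2%). The share was 23.9% for members that did not pass, 17.1% for Zfp genes under 500 and 16.7% for all genes that fell. Counted by gene, 30 of 68 members that fell had it in at least 1 promoter (44.1%). By the same count it was in 21.1% of members that rose and 25.5% of members that did not pass. For all genes with a promoter the share was 21.6%, and for all genes that fell 19.1%. TGATNNAT was in 6.9% of member promoters and 8.85% of all promoters. A match is a description of the letters and no measurement of binding, and promoters of duplicated genes share their origin. Where promoters overlap, as for *Zfp942* with *Zfp943* and *Zfp944* with *Zfp758*, the same letters were counted once for each gene.

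The duplicated pairs of the long run on chromosome 17 are shown because members of both pairs fell and because they share a window around TGACAG letter by letter. *Zfp942* and *Zfp943* are transcribed away from each other from starts 95 bases apart, and *Zfp944* and *Zfp758* from starts 63 bases apart. The promoters of *Zfp943* and *Zfp758* share an identical stretch of 248 bases, and those of *Zfp942* and *Zfp944* a stretch of 207 bases. The 26-base window around TGACAG, in capitals, was found in these 4 of all 32851 promoters, at chr17:21962507-21962532 (plus strand) for the first pair and at chr17:22361418-22361443 (plus strand) for the second.
Zfp942, Zfp943, Zfp944 and Zfp758: tccggtcacgTGACAGcgctaacgcc
The promoters of *Zfp943* (chr17:21962309-21962608, plus strand) and *Zfp758* (chr17:22361213-22361512, plus strand) read in full as follows, with TGACAG in capitals.
Zfp943: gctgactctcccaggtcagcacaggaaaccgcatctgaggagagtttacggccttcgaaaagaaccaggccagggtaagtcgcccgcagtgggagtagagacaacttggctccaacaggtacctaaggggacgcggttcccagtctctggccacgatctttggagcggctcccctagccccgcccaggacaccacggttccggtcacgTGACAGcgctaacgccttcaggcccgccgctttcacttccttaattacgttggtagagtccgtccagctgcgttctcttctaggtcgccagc
Zfp758: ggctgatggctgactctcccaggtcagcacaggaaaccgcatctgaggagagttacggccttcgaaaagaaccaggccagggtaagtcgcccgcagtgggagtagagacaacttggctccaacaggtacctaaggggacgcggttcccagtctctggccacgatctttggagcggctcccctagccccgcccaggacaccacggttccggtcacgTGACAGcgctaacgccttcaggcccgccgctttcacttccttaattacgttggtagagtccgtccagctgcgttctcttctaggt
The differences of these genes, -1.29 for *Zfp943* and -0.82 for *Zfp758*, were not compared by a test.

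A shorter likeness was found in promoters of members on different chromosomes. The letters GAGTGACAGGA were taken from the promoter of *Zfp938*, a member that fell, after it had been seen. They were in 36 of 32851 promoters on either strand (0.11%), which belong to 30 genes. Among these were 7 members, of which 5 fell and 2 did not pass, while 45.9% of all members and 16.2% of all genes were lower. For the genes with these letters that are not members, decreases were not counted. The windows below are shown so that the shared letters can be read, with TGACAG in capitals and coordinates of GRCm38.p6. Those of *Zfp938*, *Zfp958*, *Zfp868*, *Zfp939* and *Zfp945* belong to members that fell, with differences of -1.08, -1.52, -0.97, -0.73 and -1.24, and those of *Zfp619* and *Zfp869* to members that did not pass, at -0.23 and -0.22. The window of *Zfp869* is cut short by the end of the promoter.
Zfp938 (chr10:82241351-82241376, plus strand): gaggcttgagTGACAGgaacagctcc
Zfp958 (chr8:4613074-4613099, minus strand): gagtcttgagTGACAGgaacacatcc
Zfp868 (chr8:69625627-69625652, plus strand): gtgatctgagTGACAGgagtagctcc
Zfp939 (chr7:39449364-39449389, minus strand): ccctcctgagTGACAGgagaaaggag
Zfp945 (chr17:22867133-22867158, minus strand): caagcgtgagTGACAGgaaattccac
Zfp619 (chr7:39517649-39517674, minus strand): aaggccggagTGACAGgagagagtgg
Zfp869 (chr8:69717129-69717152, plus strand): agggcctgagTGACAGgaacagct
The promoter of *Zfp580*, the member that rose most, holds neither motif in these 300 bases. Over 142 members the mean GC content of the promoters and the difference had Spearman's rho of 0.30 and Pearson's r of 0.31, as a description across genes. The median GC content was 54.0% for promoters of members that fell and 61.8% for those of members that rose, and for all genes 60.7% where they fell and 58.7% where they rose.

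Genes that KRAB proteins work with were set beside the members, from a list of 24 of which 22 were measured. Of these 11 fell and the other 11 did not pass, with a median difference of -0.37, against 16.2% of all genes lower and 26.8% among all genes in the range of the brightest members. The median level of the list was 9.67. *Cbx1* and *Cbx3*, HP1 proteins that bind methylated histone H3, had the largest differences. *Cbx1* had 8.63 on both mutant arrays and 9.78 and 9.95 in wild type (-1.23 ± 0.09, adjusted p = 0.00299), and *Cbx3* had 9.47 and 9.20 in mutants and 10.40 and 10.74 in wild type (-1.24 ± 0.16, adjusted p = 0.00666). *Morc3*, *Atrx* and *Sumo2*, which act in heterochromatin and in its SUMO mark, fell by 1.01, 1.03 and 1.03. The deacetylases *Hdac1* and *Hdac2* fell by 0.52 and 0.72, and the HUSH complex genes *Tasor* and *Pphln1* by 0.58 and 0.53. *Cbx5*, a further HP1 gene of the list, fell by 0.51. *Trim28*, which the KRAB domain binds, and *Setdb1* did not pass. *Trim28* had 11.21 and 11.35 in mutants and 11.10 and 11.01 in wild type (0.22, adjusted p = 0.121), and *Setdb1* had 9.26 and 9.40 in mutants and 9.58 and 9.57 in wild type (-0.24, adjusted p = 0.089). Without mutant replicate 1 or 2, 7 or 6 of the list fell.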

How the data were processed

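Expression was measured on 4 arrays of E15 cochleas, 2 of *Meis2* mutants and 2 of wild type, grouped by their labels. The authors deposited log2 signals from the robust microarray analysis algorithm (RMA), in which background is corrected, arrays are brought to a common distribution and the probes of a set are combined. RMA and the build mm8 are named in the submitters' processing notes. These steps could not be repeated without scanner files, which were not used here, and the number of arrays limits the precision. Differences of all 35556 probe sets were fitted with limma 3.58.1 in R 4.3.3 (lmFit and eBayes, no covariate, no filter on low values). Each estimate of spread had 2 residual degrees of freedom, to which the prior added 2.91. Symbols come from the platform's annotation, updated through RefSeq. The 1621 probe sets with more than 1 symbol were left unnamed.

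Gene order and promoters come from RefSeq (GRCm38.p6), a later build than that of the array notes. The members and lists were chosen with earlier results of these data known. Genes named in the text by rule are the 10 largest decreases and 10 largest increases past the threshold with no overlap, and *Zfp788* and *Zfp945*. The rules also took members of the longest runs, the 3 brightest and 3 dimmest, and the list genes with the 4 smallest p. Others were named for a role, for several probe sets or for a sequence after their values were seen. The count of values under alternatives covers 70 genes, which are those taken by rule or for a role. Other list genes, other members of shorter runs or shown for a sequence, and marker genes are outside that count. Alternatives were significance analysis of microarrays (SAM), which the methods name, written for this work with 6 relabelings, trended and robust priors, scaling to equal medians, a repeat of quantile normalization, leaving out dim probe sets or those without exactly 1 symbol, weights for arrays, the mean of a gene's probe sets, a threshold of 0.1 and leaving out each array. With an array left out, the lone array of its genotype is assumed to vary like the others. The code was tested on simulated data. Protein sequences were not used here, so KRAB domains and zinc fingers were not counted.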

Additional observations from a re-analysis of the deposited data

How the results depend on the processing

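No paired analysis was possible because the genotypes share only replicate number 2. The 78 decreases numbered 60 to 98 under the alternatives that kept all arrays (98 with SAM), and 45 to 72 when an array was left out. The 28 increases numbered 48 with SAM and 4 to 21 with an array left out. Median scaling moved the median difference of the members to -0.38, and the other alternatives that kept all arrays gave -0.34 to -0.30, against -0.33 to -0.25 with an array left out. Median scaling also gave 18.9% of all genes lower and 15.7% higher, SAM 25.8% and 53.4%, and for the members 86 lower and 19 higher under median scaling. In the KRAB pathway list, increases numbered 1 with a trended prior, with repeated quantile normalization, with the filter on dim probe sets, with probe sets of 1 symbol and at the threshold of 0.1, and 3 with SAM, and decreases 6 to 11 with an array left out. The cause of these shifts was not tested.

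Signs turned only where the difference was near 0. *Zfp600* had -0.077 under median scaling and -0.032 under repeated quantile normalization, and -0.058 to 0.073 with an array left out. Under repeated quantile normalization *Zfp536* had 0.003 and *Zfp768* 0.02, and with an array left out they ran from -0.074 to 0.017 and from -0.107 to 0.004, *Zfp764* from -0.017 to 0.189 and *Zfp980* from -0.151 to 0.01. *Zfp640* had 0.032 as the mean of its probe sets. Of the values of named genes under alternatives, 865 kept their direction and side of the threshold, 66 no longer passed, 19 newly passed and 11 turned. The planned counts of members with and without a KRAB domain, of zinc fingers and of protein identity were not run. The filter on dim probe sets leaves out the dimmest members, which have no value under it.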

Other observations

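A further 37 probe sets carry several symbols, of which at least 1 is a gene from *Zfp500* to *Zfp999*, and name no gene in the counts above. Of these, 29 were lower in *Meis2* mutants and 8 did not pass in limma, against 15.7% lower of all probe sets. The median difference was -1.11, and 22 fell by 2-fold or more. For 32 of them both mutant arrays lay below both wild-type arrays, against 9372 of all 35556 probe sets. Among the 37, a pair that names *Zfp931* and *Zfp971* holds identical values, and several share symbols with genes outside the zinc finger families such as *Rpl13a* and *Tubb4b*.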
